A study of Homo sapiens with 10 samples.

Results

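A set of 10 genes used to recognise neural and neural crest cells, of 64940 genes in the table, was followed in RNA sequencing libraries of differentiated H9 cells, an established human embryonic stem cell (hESC) line. The genes were PAX6, PAX3, SOX1, SOX10, OTX2, NES, NCAM1, MAP2, TUBB3 and FOXD3. They were chosen by name, with earlier results of these data known, and each matched 1 entry of the table. The 2 control libraries are labelled wild type and spontaneously differentiated. The 2 oeDAZL libraries are labelled hPGCLCs, that is, human primordial germ cell-like cells made from hESCs, and carry extra DAZL, an RNA-binding protein of germ cells. All 4 libraries share the H9 background. The study's methods deliver DAZL by lentivirus to cells differentiating in BMP4 and BMP8a. The sources conflict on the control cells, since the series' design text and the study also call them PGCLCs, and whether these libraries received the BMPs or a control virus is not settled. If the labels hold, DAZL and the culture cannot be told apart. The promoter driving DAZL and the sorting of the cells used for RNA-seq were not given in the sources used here.

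Neural tissue arises from ectoderm that is kept free of BMP signalling, and the neural crest forms at its border, under intermediate BMP, before its cells leave to make peripheral neurons, glia, pigment cells and parts of the skull. SOX1 and PAX6 are classical marks of the neural plate, OTX2 specifies forebrain and midbrain, PAX3 marks the dorsal neural tube and the border, and FOXD3 and SOX10 mark crest cells that have been specified. NES, NCAM1, MAP2 and TUBB3 encode structural proteins of progenitors and neurons. Several of these genes also have roles outside the nervous system: OTX2 and FOXD3 are expressed in pluripotent cells, and NES occurs in many dividing mesenchymal and endothelial cells.

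DAZL was listed at 0 and 0.0333 TPM (a transcript level scaled for transcript length and for the library total) in control replicates 1 and 2, and at 102 and 101 TPM in oeDAZL replicates 1 and 2. Depth cannot be read back from TPM and is unknown here, and precision is limited by the 2 libraries per group. Standard errors are those of limma, which draws each gene's spread toward that of genes at similar levels. The labels do not say that the replicates were separate cultures, so p-values measure the spread between these libraries, which may be technical. Of the PGC markers, SOX17 lay between 2.52 and 3.35 TPM, PRDM1 between 1.47 and 2.32 TPM and NANOS3 between 0.732 and 1.66 TPM over the 4 libraries. TFAP2C lay between 44.3 and 53.9 TPM and KIT between 6.23 and 7.70 TPM, and DDX4 was listed at 0 in all libraries. The amnion markers also ranged widely, with GABRP between 1208 and 1408 TPM and CGA between 4.34 and 15.5 TPM. On the first principal component (55.5% of variance), control replicate 1 was at −30.1, control replicate 2 at −7.97 and the oeDAZL libraries at 22.4 and 15.7. On the second (24.3%), control replicate 2 stood apart at −22.2, against 11.4 for control replicate 1 and −0.53 and 11.4 for the oeDAZL libraries.

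The neural and neural crest genes did not all differ in the same direction. The structural genes NES and TUBB3 were abundant, and NES was higher in oeDAZL. The 8 others were at or below 10.8 TPM in every library, and PAX6, OTX2 and NCAM1 among them were lower in oeDAZL. None of these differences had an adjusted p under 0.05 in limma. For all 8, control replicate 1 held the highest level, and SOX10 and FOXD3 reached at most 0.288 TPM in any other library.

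**Figure D1:**
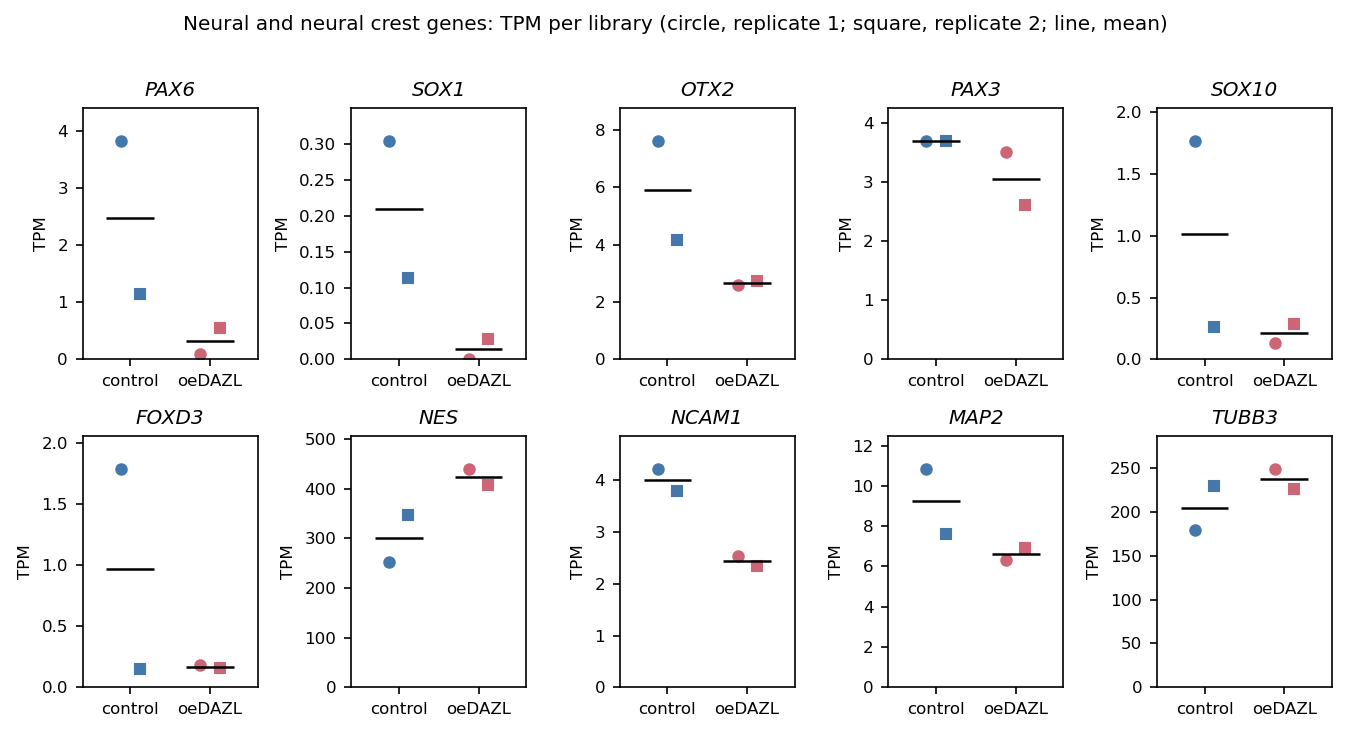
TPM of the 10 neural and neural crest genes in each library. Each panel has its own linear axis starting at 0, circles are replicate 1, squares are replicate 2 and the line is the group mean. In 8 panels the control replicate 1 circle is the highest point, and in the panels for NES and TUBB3 it is the lowest.

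The tests compared oeDAZL with control on log2(TPM + 1) with limma, fitted to the 16687 genes whose mean level reached 1 TPM. This scale understates changes of genes at low TPM. Of the 10 genes, 7 passed the filter and SOX1, SOX10 and FOXD3 did not. At an unadjusted p of at most 0.05, which is what passing the test means here, 4 of the 7 passed, beside 20.2% of all tested genes. PAX6, OTX2 and NCAM1 were lower, beside 15.2% of all tested genes that were lower at this threshold. NES was higher, beside 5.02% of all tested genes. The lean toward lower genes depended on scaling: 2530 genes were lower and 838 higher as deposited, but 1528 and 1660 when scaled by median of ratios, where the same comparison in the 7 genes stayed at 3 and 1. With a 2-fold change required as well, PAX6 alone remained, beside 0.563% of tested genes called lower, and none was called higher, beside 0.126%. After Benjamini-Hochberg adjustment in limma over all tested genes, 0 of the 7 were under 0.05, beside 0.0599% of tested genes. Without control replicate 1, 0 of the 7 were lower, beside 10.3% of all tested genes, and 1 was higher, beside 4.67%. Exact permutation of 4 libraries has a smallest p of 0.33 and could not reach the threshold.

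Among the early neural transcription factors, PAX6 (chromosome 11, 31784779 to 31817961, reverse strand, hg38) is a paired-box and homeobox factor of neuroectoderm and eye. Its level was 3.83 and 1.14 TPM in control and 0.0967 and 0.558 TPM in oeDAZL. The groups did not overlap, and both groups were uneven within themselves. The oeDAZL mean was 13.2% of the control mean. The log2 difference was −1.30 (standard error 0.43; limma, adjusted p = 0.189). It was −0.71 without control replicate 1 and −1.05 without oeDAZL replicate 1, and PAX6 did not pass the test in either case or without the TPM filter. In bulk libraries, fewer cells with a transcript and less of it per cell cannot be told apart.

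OTX2 (chromosome 14, 56799905 to 56816693, reverse strand) is a homeobox factor of anterior neuroectoderm that is also present in primed pluripotent cells. It was at 7.62 and 4.16 TPM in control and 2.59 and 2.72 TPM in oeDAZL. The oeDAZL libraries were close together and below both control libraries, with a mean at 45.0% of the control mean. The log2 difference was −0.87 (standard error 0.26; limma, adjusted p = 0.165). Without control replicate 1 it was −0.50, and OTX2 did not pass the test.

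SOX1 (chromosome 13, 112067149 to 112071706), an HMG-box factor among the earliest marks of the neural plate, was at 0.304 and 0.114 TPM in control and 0 and 0.0285 TPM in oeDAZL. The oeDAZL libraries lay below both control libraries at levels that were low throughout. Fitted without the filter, its log2 difference was −0.25, with an adjusted p = 0.443 in limma, and it did not pass the test.

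Among the neural crest factors, PAX3 (chromosome 2, 222199887 to 222298998, reverse strand), is a paired-box factor of the dorsal neural tube and border. It was at 3.71 and 3.70 TPM in control and 3.51 and 2.61 TPM in oeDAZL. The log2 difference was −0.22 (standard error 0.19), and PAX3 did not pass the test (limma, adjusted p = 0.543). The difference between the oeDAZL libraries was larger than the one between the groups.

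SOX10 (chromosome 22, 37970686 to 37987422, reverse strand) maintains crest progenitors and drives glia and melanocytes. It was at 1.77 and 0.259 TPM in control and 0.132 and 0.288 TPM in oeDAZL. FOXD3 (chromosome 1, 63322567 to 63325128), a forkhead factor of early crest and of pluripotent cells, was at 1.79 and 0.155 TPM in control and 0.184 and 0.159 TPM in oeDAZL. For both genes control replicate 1 stood apart, control replicate 2 was close to the oeDAZL libraries, and the groups overlapped. Control replicate 1 was 6.82 times control replicate 2 for SOX10 and 11.6 times for FOXD3. Without the filter, the log2 differences were −0.63 for SOX10 (limma, adjusted p = 0.641) and −0.62 for FOXD3 (limma, adjusted p = 0.641).

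The study asks how DAZL acts on miRNA precursors, and the longest annotated 3′UTRs of the 10 genes were therefore searched for sites of 7 mature miRNAs of families that it follows. miRNA levels were not measured in these libraries. A site was an 8mer on the transcribed strand, the complement of miRNA bases 2 to 8 followed by A. The letters searched were ctacctca for let-7, acagggta for miR-10, ataagcta for miR-21, ggcagcta for miR-22, ctcaggga for miR-125, acactgga for miR-199a-5p and actactga for miR-199a-3p. They occur in the longest 3′UTR of 4.05%, 2.18%, 2.57%, 2.20%, 5.64%, 4.29% and 2.57% of 19249 genes, in that order. In the 10 genes there was 1 match, for miR-199a-5p in PAX3. It begins at base 530 of a 3′UTR of 1521 bases, at chr2:222200871-222200878 on the reverse strand of hg38. The RefSeq mature sequences of let-7a-5p, of a family the study follows, and of miR-199a-5p are shown with their seeds, bases 2 to 8, in capitals, and the PAX3 site with the 8mer in capitals:
let-7a-5p: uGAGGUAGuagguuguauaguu
miR-199a-5p: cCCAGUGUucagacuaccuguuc
PAX3 site: ttgactcttacACACTGGAaat
The match describes these letters only, and its part in the level of PAX3 was not tested.

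Among the structural genes, NES (chromosome 1, 156668763 to 156677407, reverse strand) encodes nestin, an intermediate filament protein of neural progenitors and other dividing cells. It was at 253 and 347 TPM in control and 440 and 409 TPM in oeDAZL. Both oeDAZL libraries were above both control libraries. NES was above at least 96.8% of tested genes in every library. The log2 difference was 0.52 (standard error 0.14; limma, adjusted p = 0.146). Without control replicate 1 it was 0.29, and NES was the 1 gene of the 7 that passed the test in all 14 alternatives run.

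NCAM1 (chromosome 11, 112961275 to 113278436) encodes a neural cell adhesion molecule. It was at 4.22 and 3.80 TPM in control and 2.55 and 2.34 TPM in oeDAZL. Replicates were close in both groups and the groups did not overlap. The log2 difference was −0.54 (standard error 0.17; limma, adjusted p = 0.180). It was −0.48 without control replicate 1, −0.59 without oeDAZL replicate 1 and −0.50 without oeDAZL replicate 2, and NCAM1 did not pass the test in any of these 3 cases.

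MAP2 (chromosome 2, 209424047 to 209734147) encodes a microtubule-associated protein of dendrites. It was at 10.8 and 7.61 TPM in control and 6.30 and 6.94 TPM in oeDAZL. The groups did not overlap, but control replicate 2 was nearer to the oeDAZL libraries than to control replicate 1. The log2 difference of −0.41 (standard error 0.18) did not pass the test (limma, adjusted p = 0.275). It was −0.18 without control replicate 1 and −0.64 without control replicate 2, and MAP2 passed the test in the latter case.

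TUBB3 (chromosome 16, 89921392 to 89938761) encodes the beta-tubulin isotype used as a neuron mark. It was at 179 and 229 TPM in control and 249 and 225 TPM in oeDAZL. The groups overlapped, and control replicate 1 was below the other 3 libraries. The log2 difference of 0.22 (standard error 0.12) did not pass the test (limma, adjusted p = 0.341). Without control replicate 1 it was 0.05, and without control replicate 2 it was 0.40 and passed the test. Beta-tubulin genes are similar in sequence, so the division of reads among them is uncertain. TUBB3 made up 8.98% and 10.8% of the summed TPM of 9 beta-tubulin genes in control, and 11.6% and 10.5% in oeDAZL.

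**Figure D2:**
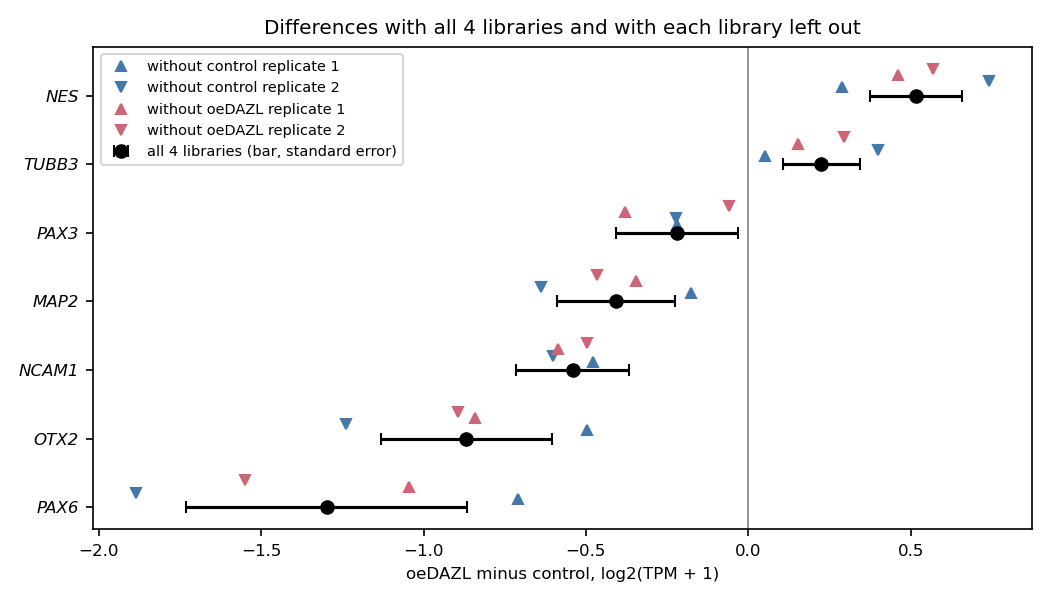
Difference between oeDAZL and control on log2(TPM + 1) for the 7 tested genes. Black points use all 4 libraries with their standard error, and triangles leave out 1 library. Leaving out control replicate 1 brings PAX6 from −1.30 to −0.71 and OTX2 from −0.87 to −0.50, and no point crosses 0.

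The order of the levels was alike in all libraries at its ends: NES was highest, then TUBB3, then MAP2, and SOX1 was lowest in each. OTX2, NCAM1, PAX3 and PAX6 changed places from library to library, between 1.14 and 7.62 TPM in the control libraries, and SOX10 and FOXD3 were neighbours in all 4 libraries at levels that did not differ beyond their spread. Control replicate 1 held the highest level of 8 of the 10 genes, and of 5 of the 7 tested, beside 44.1% of all tested genes. It held the lowest level of the other 2, NES and TUBB3, beside 21.2% of all tested genes. The log2 difference between control replicates 1 and 2 was largest for FOXD3 at 1.27, PAX6 at 1.18, SOX10 at 1.14 and OTX2 at 0.74. It was 0.46 for MAP2, 0.23 for SOX1, 0.12 for NCAM1, 0.0021 for PAX3, −0.35 for TUBB3 and −0.45 for NES. The median absolute difference over all tested genes was 0.14. That median covers genes of every level above the filter, which SOX1, SOX10 and FOXD3 did not pass. The groups did not overlap for 6 genes that were lower in oeDAZL and 1 that was higher. For the 7 tested genes these numbers were 5 and 1, beside 38.4% and 16.0% of all tested genes and 54.4% in either direction. The median log2 difference of the 7 was −0.41 beside −0.08 over all tested genes. It was −0.22 without control replicate 1 and −0.60 without control replicate 2, and this median leaves out the 3 genes under the filter.

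Other neural and neural crest genes were taken from 5 lists with 120 different genes, of which 69 passed the filter. At an unadjusted p of at most 0.05 in limma, 12 were lower and 8 higher in oeDAZL, and the 20 became 38 without control replicate 2 and 10 without oeDAZL replicate 1. None was called with a 2-fold change, beside 0.563% of all tested genes called lower and 0.126% called higher. An adjusted p under 0.05 was reached by 0, beside 0.0599% of all tested genes. Over all tested genes, 15.2% were lower and 5.02% higher at this threshold, and in 38.4% both oeDAZL libraries lay below both control libraries. These shares are from the fit to all 4 libraries. With a library left out the numbers over all tested genes moved as well, up without control replicate 2 and down without oeDAZL replicate 1. Changes of the list counts below are therefore not particular to the lists. The 3 most abundant genes of each list are named by rule, and every other gene of the 5 lists named here was singled out after its values were seen.

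Of 28 regulators of neural plate and progenitors, 14 passed the filter, 3 were lower and 0 higher, beside 15.2% and 5.02% of all tested genes, and 11 did not pass the test. Their median log2 difference was −0.40, −0.23 without control replicate 1 and −0.67 without control replicate 2. In 10 of the 14 both oeDAZL libraries lay below both control libraries, beside 38.4% of all tested genes. PLAGL1, an imprinted zinc finger gene, was at 33.1 and 19.4 TPM in control and 15.1 and 17.2 TPM in oeDAZL (log2 difference −0.62, limma adjusted p = 0.218). MSI1, an RNA-binding protein of neural progenitors, was at 21.6 and 22.9 TPM against 17.5 and 18.7 TPM (log2 difference −0.28, limma adjusted p = 0.178). IRX3, a homeobox factor of neural patterning, was at 16.3 and 10.3 TPM against 9.19 and 9.38 TPM and did not pass the test. The third gene that passed, ZIC1, a zinc finger factor of the neural plate border, was singled out after its values were seen. ZIC1 was at 3.71 and 3.79 TPM in control and 1.6 and 1.39 TPM in oeDAZL, so the control libraries were alike and the groups far apart. Its log2 difference was −0.93 (standard error 0.19; limma, adjusted p = 0.0989). The number lower was 3 without control replicate 1, 6 without control replicate 2, 1 without oeDAZL replicate 1, and 1 with median-of-ratios scaling or quantile normalization.

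The nearest relatives of the early factors, also named after their values were seen, differed from each other. SOX2, of the same SOXB1 group as SOX1, was at 5.16 and 2.57 TPM in control and 2.16 and 2.04 TPM in oeDAZL. SOX3, the other gene of that group, was at 8.07 and 10.3 TPM against 12.1 and 9.78 TPM. OTX1, the paralogue of OTX2, was at 1.85 and 0.727 TPM against 0.974 and 0.550 TPM, and its groups overlapped. None of the 3 passed the test.

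**Figure D3:**
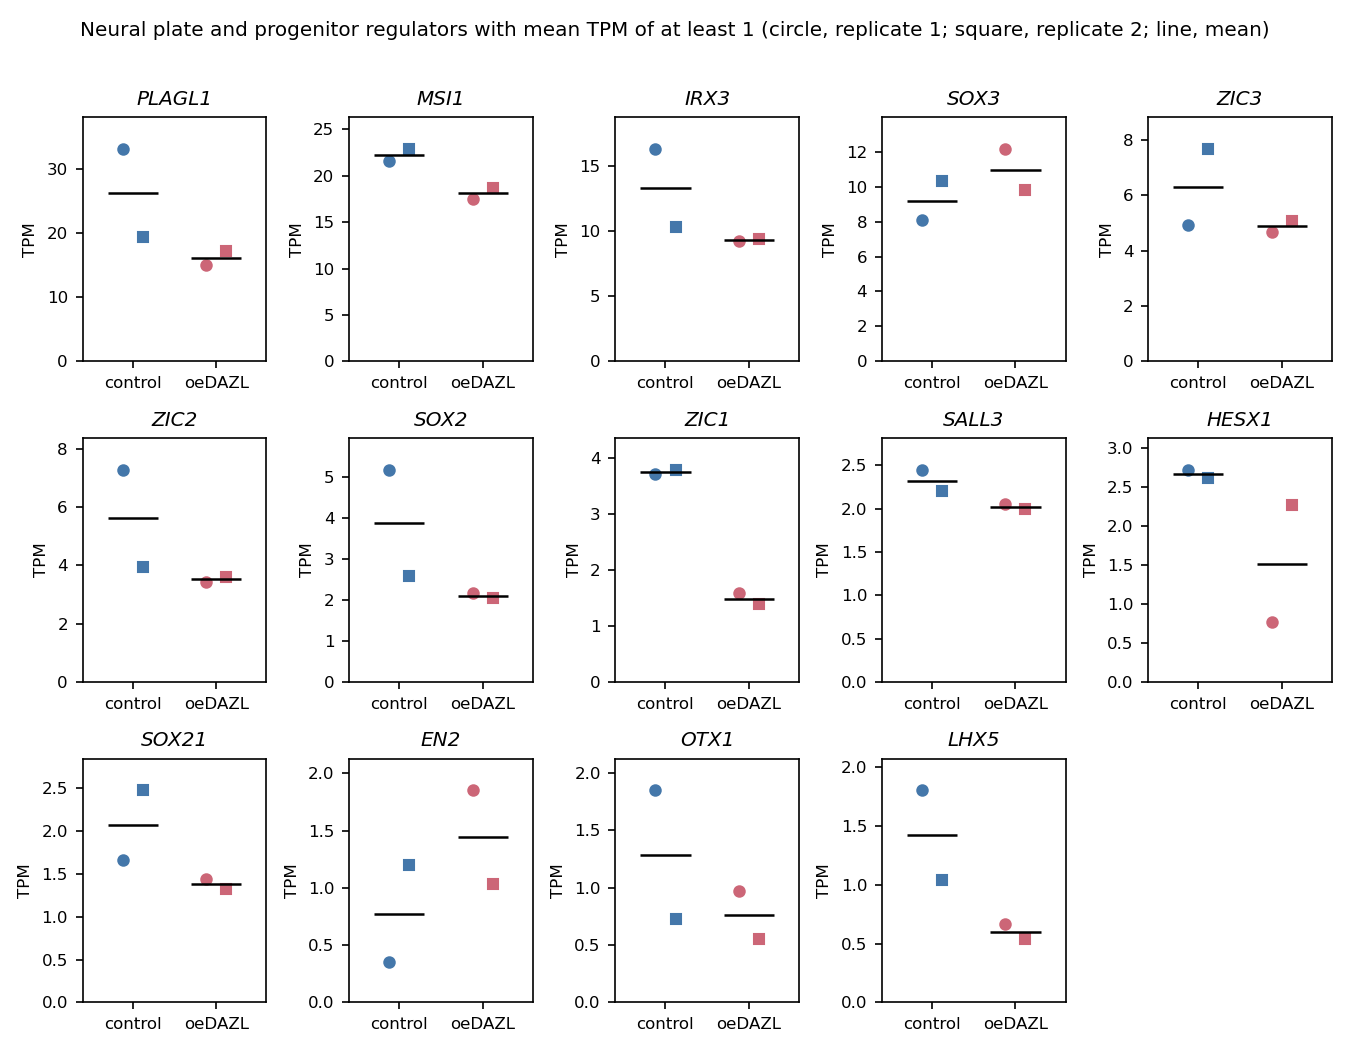
TPM of the 14 neural plate and progenitor regulators that passed the filter, in each library. Axes start at 0, circles are replicate 1, squares are replicate 2 and the line is the group mean. Both oeDAZL points lie below both control points in 10 panels, with the lowest ratio of means for ZIC1, and control replicate 1 is the highest point in 8.

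Of 28 regulators of the neural crest and its border, 21 passed the filter, 2 were lower and 5 higher, beside the same 15.2% and 5.02%, and 14 did not pass the test, with a median log2 difference of 0.10 that turned to −0.03 without the filter. The numbers were 6 and 6 without control replicate 2, 1 and 5 without control replicate 1, and 1 and 3 without oeDAZL replicate 2. ID3, a target of BMP signalling, was at 299 and 374 TPM in control and 511 and 460 TPM in oeDAZL (log2 difference 0.53, limma adjusted p = 0.104). MSX2, a homeobox target of BMP signalling at the border, was at 201 and 205 TPM against 249 and 245 TPM (log2 difference 0.28, limma adjusted p = 0.0896). TFAP2A, a factor of crest, surface ectoderm and amnion, was at 170 and 149 TPM against 156 and 164 TPM, and its groups overlapped. The others that were higher were SNAI2, SOX9 and DLX6, and those that were lower were NR2F2 and ERBB3. Of these, SOX9 was at 24.9 and 30.4 TPM against 47.4 and 43.8 TPM (log2 difference 0.71, limma adjusted p = 0.0896). NR2F2 was at 58.5 and 50.2 TPM against 34.4 and 34.2 TPM (log2 difference −0.65, limma adjusted p = 0.0896). ID3, MSX2, TFAP2A, SNAI2 and SOX9 are all expressed outside the crest as well. PAX7, the paralogue of PAX3, was at 0.825 and 0.694 TPM against 0.199 and 0.205 TPM and did not pass the filter.

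Of 29 genes of neuronal differentiation, 12 passed the filter, 4 were lower and 0 higher, beside 15.2% and 5.02%, and 8 did not pass the test. Their median log2 difference was −0.06, and it turned to 0.01 when scaled by median of ratios, 0.06 after quantile normalization, 0.09 without control replicate 2 and 0.01 without oeDAZL replicate 2. DPYSL3, a cytosolic protein of growing axons, was at 269 and 248 TPM in control and 196 and 207 TPM in oeDAZL (log2 difference −0.36, limma adjusted p = 0.0896). L1CAM, an axonal adhesion molecule, was at 69.9 and 107 TPM against 101 and 88.9 TPM, and CRMP1, a relative of DPYSL3, at 78.9 and 87.4 TPM against 78.6 and 80.8 TPM, with overlapping groups for both. The others that were lower were ISL1, STMN2 and GAP43. ISL1 is also among the amnion and trophoblast markers below, and its call is counted in both lists. STMN2, a microtubule regulator of neurons, was at 24.6 and 20.6 TPM against 13.1 and 14.0 TPM (log2 difference −0.69, limma adjusted p = 0.0896). GAP43, a growth cone protein, was at 6.02 and 5.18 TPM against 2.12 and 2.68 TPM (log2 difference −0.96, limma adjusted p = 0.0936). NEUROG1, NEUROG2 and NEUROD1, factors of neuronal differentiation, were each above 0 in a single library, at 0.149 TPM or less. The neuronal list was 4 lower and 0 higher without control replicate 1, and 4 lower and 4 higher without control replicate 2.

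Of 14 glial genes, 6 passed the filter, 1, MBP, was lower and 0 were higher, beside 15.2% and 5.02% of all tested genes. The numbers lower and higher were 2 and 0 in limma without trend, and 1 and 1 with median-of-ratios scaling or quantile normalization. The median log2 difference of the 6 was −0.18, with −0.11 without oeDAZL replicate 1 and −0.09 without control replicate 2. MBP, a myelin protein with transcripts outside glia, was at 15.2 and 14.4 TPM in control and 11 and 11.8 TPM in oeDAZL (log2 difference −0.35, limma adjusted p = 0.164). SLC1A3, a glutamate transporter of radial glia, was at 35.0 and 39.6 TPM against 47.5 and 40.6 TPM, and CSPG4, a proteoglycan of glial precursors and pericytes, at 6.77 and 7.17 TPM against 5.92 and 5.27 TPM. GFAP, the astrocyte filament gene, was at or below 0.157 TPM in all libraries.

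Of 21 relatives and partners of the structural genes, 16 passed the filter, and 11 of these did not pass the test. In oeDAZL 2 were lower and 3 higher, beside 15.2% and 5.02% of all tested genes. VIM, the filament partner of nestin, was at 1188 and 1460 TPM in control and 1539 and 1469 TPM in oeDAZL (log2 difference 0.19, limma adjusted p = 0.338). SYNM, another filament partner and singled out after its values were seen, was at 6.93 and 12.6 TPM against 19.0 and 15.5 TPM (log2 difference 0.80, limma adjusted p = 0.177). TUBB2A was at 462 and 515 TPM against 560.0 and 560.4 TPM (log2 difference 0.20, limma adjusted p = 0.183). CDH1, the epithelial cadherin, was at 588 and 529 TPM against 483 and 500.1 TPM (log2 difference −0.18, limma adjusted p = 0.208). The remaining genes that passed were TUBB2B, which was higher, and TUBB4A, which was lower. Without oeDAZL replicate 1 the numbers lower and higher were 0 and 0, without oeDAZL replicate 2 they were 1 and 1, and without control replicate 2 they were 3 and 6.

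**Figure D4:**
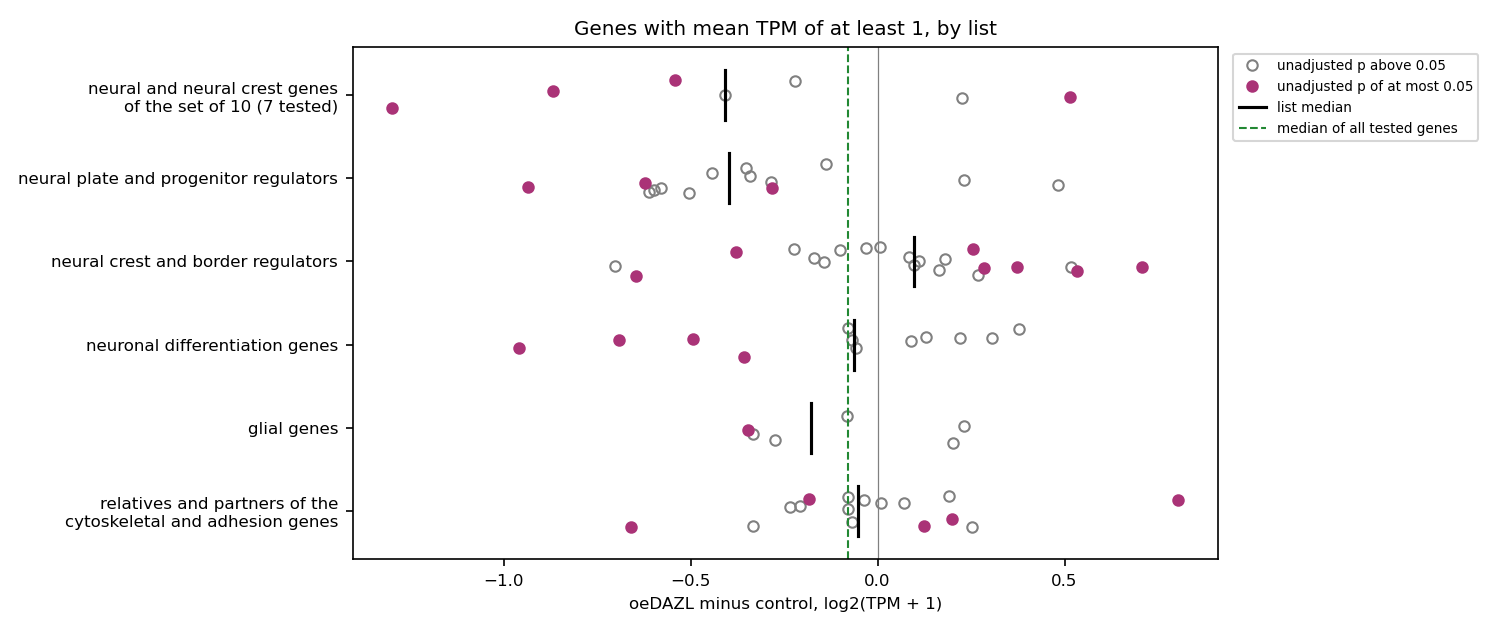
Difference between oeDAZL and control on log2(TPM + 1) for the genes that passed the filter, by list. Filled points have an unadjusted p of at most 0.05 in limma, black bars are list medians and the dashed line is the median of all tested genes at −0.08. The medians were −0.41 for the set of 10, −0.40 for the neural plate list and 0.10 for the neural crest list.

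Of the entries that overlap or adjoin the 10 genes, 4 passed the filter, all 4 had both oeDAZL libraries below both control libraries, beside 38.4% of all tested genes, and 1, DEF8, passed the test, beside 15.2%. The number that passed was 2 without control replicate 1 and 0 without oeDAZL replicate 1. FOXD3-AS1, which overlaps FOXD3, was at 1.25 and 0.154 TPM in control and 0.317 and 0.290 TPM in oeDAZL, so control replicate 1 was the highest for it as for FOXD3. The strand setting of the counting was not given in the sources used here, so reads of the pair cannot be told apart. ELP4, which overlaps PAX6, was at 3.60 and 4.70 TPM against 2.99 and 3.42 TPM, and POLR2F, which overlaps SOX10, at 33.3 and 38.1 TPM against 30.5 and 32.0 TPM. MC1R, 419 bases from TUBB3, was at 6.79 and 5.78 TPM against 5.37 and 5.65 TPM. DEF8, 9936 bases from TUBB3, was at 47.4 and 48.2 TPM against 38.1 and 39.7 TPM and was lower (log2 difference −0.29, limma adjusted p = 0.116). OTX2-AS1 and PAUPAR, which overlaps PAX6, were each above 0 in 1 control library, at 0.167 and 0.0413 TPM. SOX2-OT, at 0.553 TPM or less, and LINC01833, at 1.25 and 0.878 TPM in control and 0 and 0.0386 TPM in oeDAZL, had been listed but adjoin none of the 10 genes.

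Markers of other cell types are given with the same background of 15.2% of all tested genes lower and 5.02% higher. This background, too, is from the fit to all 4 libraries and moved with a library left out. Of 13 mesoderm and mesenchyme markers, 10 passed the filter, 5 were lower and 1 higher. Their summed level was 2592 to 2657 TPM in the control libraries and 2204 to 2237 TPM in the oeDAZL libraries. The higher one, HAND1, is also on the amnion list and was at 958 and 1042 TPM against 1250 and 1247 TPM. COL3A1, called lower at 2-fold, was at 583 and 479 TPM against 224 and 220 TPM (log2 difference −1.25, limma adjusted p = 0.0344). CGA of the amnion list and AFP of the endoderm list were also called lower at 2-fold. CGA was at 15.5 and 10.4 TPM against 4.34 and 5.82 TPM (log2 difference −1.18, limma adjusted p = 0.0896). AFP was at 36.3 and 13.1 TPM against 8.91 and 11.6 TPM (log2 difference −1.04, limma adjusted p = 0.243). Of these markers, DAZL alone was called higher at 2-fold. Of 12 amnion and trophoblast markers, all 12 passed, 4 were lower and 3 higher, with 3 and 1 without oeDAZL replicate 1, 4 and 2 without control replicate 1 or oeDAZL replicate 2, and 5 and 5 without control replicate 2, and with sums of 10284 to 10827 TPM and 11483 to 11775 TPM. Of 10 endoderm markers, 9 passed and 1 was lower, with sums of 180 to 287 TPM and 183 to 222 TPM. The endoderm sum was highest in control replicate 1, as were AFP at 36.3 TPM and TTR at 44.4 TPM, and the 1 lower call became 0 without control replicate 1 or oeDAZL replicate 1 and 2 without control replicate 2. Of 10 pluripotency markers, 6 passed and 3 were higher, with sums of 547 to 595 TPM and 535 to 558 TPM, and the 3 became 1 without oeDAZL replicate 1. Of 12 PGC markers, DAZL included, 10 passed and 3 were higher, with sums of 551 to 562 TPM and 735 to 759 TPM. The sums hold the introduced DAZL, at 0 and 0.0333 TPM in control and 102 and 101 TPM in oeDAZL. Its call and its part of the rise follow from the design. The 3 were DAZL itself, EPCAM, an epithelial adhesion gene at 422 and 392 TPM in control and 494 and 476 TPM in oeDAZL, and PDPN, and the number was 2 without control replicate 1 and 1 without oeDAZL replicate 1. SOX17, PRDM1, NANOS3 and TFAP2C did not pass the test, with log2 differences of −0.0036, −0.25, −0.41 and −0.12. Both oeDAZL libraries lay below both control libraries for PRDM1 and NANOS3, and the groups overlapped for SOX17 and TFAP2C. The part of these markers in the differences of the neural and neural crest genes was not tested.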

How the data were processed

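RNA sequencing of 2 control and 2 oeDAZL libraries was used, and the 6 miRNA libraries of the series were not analysed here. The authors deposited TPM per gene, replicates not pooled. According to the study's methods and processing notes, reads were trimmed with Trim Galore, mapped to hg38 with HISAT2 2.1.0, restricted to unique reads and quantified with StringTie 2.1.4, with the annotation release not given in the sources used here. Restricting to unique reads can lower genes with similar copies, such as beta-tubulins. Of 65003 entries, 45 pseudoautosomal copies and 18 repeated identifiers were left out. Genes whose mean level reached 1 TPM were fitted on log2(TPM + 1) with limma 3.58.1 in R 4.3.3 (eBayes with trend, no covariates). The test was checked on simulated data whose changes were larger than the differences fitted here for the tested genes of the set. That check does not cover smaller differences. The genes, lists and tests were chosen with earlier results of these data known. Named were the 10 genes, DAZL and adjoining entries above 0 TPM. Of each wider neural or neural crest list, genes called at 2-fold or among its 3 most abundant were named. Markers of other cell types were outside this rule. Other genes of the lists were singled out after their values were seen. Coordinates and 3′UTRs come from GENCODE 44 (hg38). Alternatives changed the pseudocount, filter, scaling, trend, pairing and libraries. The labels do not say whether replicate numbers pair the libraries. Deviations with the same number correlated at −0.10 across genes, which cannot settle the pairing with 2 libraries in each group.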

Additional observations from a re-analysis of the deposited data

How the results depend on the processing

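No tested gene of the 7 changed direction under any alternative. PAX6 lost its unadjusted p of at most 0.05 in 3 of 13 alternatives, OTX2 in 1 and NCAM1 in 4, while NES kept it in 14 of 14. Over the alternatives, limma adjusted p ranged from 0.0419 to 0.569 for PAX6, 0.0450 to 0.496 for OTX2, 0.0136 to 0.477 for NES and 0.144 to 0.556 for NCAM1. The lowest for PAX6 and NES came from the crossed pairing, an alternative chosen after the data were seen. The genes of the 7 with an unadjusted p of at most 0.05 numbered 4, and between 1 and 6 with each library left out, which assumes that a lone library varies like the other group. With the filter raised to 5 TPM, only MAP2, NES and TUBB3 of the 10 genes remained, 1 passed, and the median log2 difference turned from −0.41 to 0.22, since the lower genes were left out. With a pseudocount of 0.1 and no filter, chosen after the data were seen, all 10 genes were fitted, the median was −0.88 and SOX1 passed the test.

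Over all genes, 21 were called higher and 94 lower. A pseudocount of 0.1 gave 55 and 267, the 5 TPM filter 6 and 23, quantile normalization 41 and 51, and the lower pseudocount without a filter 340 and 882. They ranged from 35 to 87 and from 85 to 235 with each library left out. Without a fold threshold, 838 were higher and 2530 lower, against 1660 and 1528 with median-of-ratios scaling and 1402 and 1515 with quantile normalization, and 357 to 1341 and 1226 to 3295 with each library left out. Genes of the 5 wider lists under that threshold numbered 20, and 10 to 38 with each library left out. The cause was not tested. The replicate block left 4 of the 7 genes and 26 and 99 called genes, and changed no call of the 7. Crossed replicate numbers, tried since the correlation was −0.10, gave 28 higher and 107 lower, and 6 of the 7 passed. TPM keeps no depth, which limits what can be said of SOX1, SOX10 and FOXD3.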
